A study of Tachysurus fulvidraco x Tachysurus vachelli with 6 samples.

Results

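The KEGG pathway of complement and coagulation cascades was examined in livers of hybrid yellow catfish. Its genes were taken from the pathway column of the deposited expression table. Rows described as trypsin, chymotrypsin or elastase were left out, which removed 2 antitrypsin rows of 155. The remaining 153 gene models, of 28288 in the table, were split by their descriptions into 55 complement and 98 clotting members. The description named a classical component in 34 complement and 56 clotting members. The clotting number counts genes described as venom prothrombin activators and all copies of alpha-2-macroglobulin, a broad protease inhibitor. The others were proteins with related domains or with another known function. The fish were hybrids of female Tachysurus fulvidraco and male Pseudobagrus vachellii, which the sample labels call Tachysurus vachelli. T_liver fish received a diet with 4 g/kg Acanthopanax senticosus (Siberian ginseng, a medicinal plant used as a feed additive) for 56 days, and C_liver fish received the basal diet with 0 g/kg for the same time. Each group had 3 libraries, called replicates 1, 2 and 3. According to the methods of the study, each group had 3 tanks, and 3 fish were taken from each tank for sequencing. RNA was then mixed within a group ahead of library preparation. The number of fish behind a library is not given, so n counts libraries and p-values measure the spread between libraries. How much of that spread lies between fish, between tanks or in the handling of RNA was not tested. Reads were aligned to the genome of T. fulvidraco, the maternal species.

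Complement and clotting are cascades of plasma proteins made mostly by hepatocytes. In complement, recognition molecules such as C1q and the mannan-binding lectins activate serine proteases that cleave C4, a step that leads to the cleavage of C3. The alternative pathway amplifies C3 cleavage through factors B and D, and the terminal components assemble the membrane attack complex, which perforates microbial membranes. Regulators such as factor H, factor I, C4b-binding protein and complement receptors hold C3 and C4 fragments in check. In clotting, proteases activate each other up to thrombin, which turns fibrinogen into fibrin. Antithrombin and protein C restrain this, and plasmin dissolves the clot. Several of these proteins belong to the acute phase response of the liver, and teleost fish carry many of the genes in several copies.

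Counts on genes summed to between 44153673 and 51459627 per library. In CPM, which are TMM-scaled counts relative to 1e+06 counts on tested genes, the 5 hepatocyte markers found in the table (ttr, fabp1, hnf4a, rbp4 and ambp, of 8 searched) summed to between 9218 and 12678 in T_liver and between 10682 and 14269.6 in C_liver. Most of this sum came from ambp, which is itself a clotting member. It had between 6730 and 8336 CPM in T_liver and between 7454 and 8361 CPM in C_liver. All 5 markers had negative log2 fold changes, but those of hnf4a, rbp4 and ambp were smaller than their SE. The gene ttr had 241, 45.4 and 51.5 CPM in T_liver against 167, 28.6 and 1265 CPM in C_liver, and was not called. The fatty acid carrier gene fabp1 was called lower in T_liver, with 156, 88.7 and 119.9 CPM against 149.5, 253 and 1688 CPM in C_liver. Both ttr and fabp1 were highest in C_liver replicate 3. The libraries were not alike within groups. T_liver replicate 1 held the highest CPM of the 6 libraries in 21 of 39 tested complement members and in 17.6% of all 11521 tested genes. It was at least 2-fold above every other library in 13 complement members (33.3%), against 1.46% of all tested genes. Of the 60 tested clotting members, T_liver replicate 1 held the highest value in 23 (38.3%) and C_liver replicate 3 in 22 (36.7%), a library that held it in 25.2% of all tested genes. Fold changes of single members that moved by over 1.5 times without either of these libraries are given with and without it.

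The members differed widely in level. Of the 153 members, 99 reached a mean of 1 FPKM over the 6 libraries and were tested, 39 of them complement and 60 clotting. The other 54 had a mean of at most 0.949 FPKM, and 20 of them had no count in any library. Among the components under this limit were factor VIII, the 2 factor XIII A chains, the tissue-type and urokinase-type plasminogen activators, the tissue factor pathway inhibitors, 8 alpha-2-macroglobulin copies, a C7-like gene and a complement receptor type 1-like gene. The highest levels per length belonged to clotting. Fibrinogen alpha chain (fga) averaged 5954 ± 977 FPKM in T_liver and 4399 ± 293 FPKM in C_liver (SD, n = 3 each). Fibrinogen beta chain (fgb) averaged 5465 ± 894 FPKM in T_liver and 4666 ± 862 FPKM in C_liver (SD, n = 3 each). Protein AMBP (ambp), the precursor of alpha-1-microglobulin and bikunin, averaged 4933 ± 489.8 FPKM in T_liver and 5418 ± 448 FPKM in C_liver (SD, n = 3 each). The highest complement member was the C1 inhibitor-like gene LOC113642639, which encodes a serpin that blocks the first proteases of the classical and lectin pathways. It averaged 2888 ± 363 FPKM in T_liver and 2235 ± 424 FPKM in C_liver (SD, n = 3 each). Terminal component C9 (c9) followed with 2795 ± 1929.6 FPKM in T_liver and 1561 ± 379.9 FPKM in C_liver (SD, n = 3 each). In these 5 genes the group means differed by less than the larger replicate SD in c9, fgb and ambp, and by more in fga and LOC113642639.

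Few members passed the criteria of the study for a DE gene, a log2 fold change of 1 or more in either direction with an unadjusted P under 0.05, here in edgeR's quasi-likelihood test. Of the 39 complement members, 2 were called higher and 1 lower in T_liver. Of the 60 clotting members, none was called higher and 2 were called lower in T_liver. Over all tested genes 1.49% were called higher and 1.61% lower in T_liver. No gene had a Benjamini-Hochberg adjusted P under 0.05 in this test, and the smallest adjusted P was 0.273 over all genes and 0.676 among the members. At an unadjusted P under 0.05 there were 765 genes (6.64%), of which 7 were members. By edgeR's exact test 14 genes and by DESeq2 38 genes had an adjusted P under 0.05, and these included 1 and 2 members. The 3 T_liver values lay above the 3 C_liver values in no complement member and in 2 clotting members, against 5.96% of all tested genes. They lay below them in 2 complement and 4 clotting members, against 7.1% of all tested genes.

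The member with the smallest P was LOC113641678, described as complement receptor type 1-like. Complement receptors of this kind bind C3b and C4b and assist factor I in cleaving them. LOC113641678 carries the orthology entry of the C4b-binding protein alpha chain instead, so its identity is unsure. It lies on scaffold NW_020848400.1 from 2384207 to 2394067. It had 119, 97.6 and 62.7 CPM in T_liver replicates 1, 2 and 3, against 283, 344 and 475 CPM in C_liver replicates 1, 2 and 3. The groups did not overlap, and the highest T_liver library was below the lowest C_liver library. It was lower in T_liver by a log2 fold change of -1.98 ± 0.36 (SE, n = 3 per group), with an unadjusted P = 0.000723 and adjusted P = 0.676 by edgeR's quasi-likelihood test and an exact 2-sided permutation p = 0.1. The last value is the smallest that 3 libraries against 3 allow. The call was made under all 15 alternatives, with log2 fold changes between -2.19 and -1.75 when a library was left out. Its adjusted P over these alternatives ran between 5.55e-05 with DESeq2 and 0.895 without T_liver replicate 3.

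LOC113641678 sits among 4 other regulator genes on the same scaffold, in which the groups overlapped. LOC113641927, described as factor H-like, ends 20 bases before its start, and had 108, 109 and 79.5 CPM in T_liver against 114, 93.4 and 78.7 CPM in C_liver. LOC113641661 starts 3706 bases after its end. It is described both as C4b-binding protein alpha chain-like and as complement receptor type 1-like, so the descriptions do not separate it from LOC113641678. It had 605, 684 and 448 CPM in T_liver against 436, 416 and 479.6 CPM in C_liver, a log2 fold change of 0.38 ± 0.27 with adjusted P = 0.729, which was 0.25 without T_liver replicate 2. LOC113641669 and LOC113641928, another C4b-binding protein-like and another receptor-like gene, were low, at 2.55 and 6.32 FPKM on average over the 6 libraries, and overlapped between groups as well. Genes described alike can share reads, and the counting of reads with several matches is not given in the sources used here.

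The 2 complement members called higher were not complement components. The gene hp is described as haptoglobin-like, and the table files it under this pathway through the orthology entry of the complement protease C1s. Haptoglobin binds free haemoglobin and is an acute phase protein in mammals and in fish. It had 9246, 128 and 1939 CPM in T_liver replicates 1, 2 and 3, against 109.7, 229 and 315 CPM in C_liver replicates 1, 2 and 3. Replicates 1 and 3 of T_liver lay above every C_liver library and replicate 2 lay within them, so the groups overlapped. The gene hp was higher in T_liver by a log2 fold change of 4.11 ± 1.32 (SE), with an unadjusted P = 0.0159 and adjusted P = 0.676 by the quasi-likelihood test, and an exact permutation p = 0.3. Without T_liver replicate 1 the log2 fold change of hp was 2.28, and without C_liver replicate 1 it was 3.79, and neither passed the criteria. The call of hp was also lost with limma on log2(FPKM + 1) or log2(FPKM + 0.1), and with a replicate block. It was made under 10 of 15 alternatives. With DESeq2 its adjusted P was 0.00535, and over the alternatives the adjusted P of hp reached 0.946.

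The other gene called higher, LOC113647532, is described as proteoglycan 4-like and carries the orthology entry of vitronectin, a plasma protein that binds the terminal complement complex. It had 763, 4.44 and 20.7 CPM in T_liver against 11.4, 17.0 and 19.0 CPM in C_liver. The call rested on T_liver replicate 1, which was 36.8-fold above the next library, while T_liver replicate 2 held the lowest value of the 6. LOC113647532 had a log2 fold change of 4.06 ± 1.67 (SE) with an unadjusted P = 0.044 and adjusted P = 0.676 by the quasi-likelihood test, and an exact permutation p = 0.7. Without T_liver replicate 1 it was -0.30, and without any 1 of the C_liver replicates the call was lost, at 3.87, 4.11 and 4.21. The call was lost with either limma setting and with a replicate block as well. DESeq2 gave no P for this gene, and the call was made under 7 of the other 14 alternatives.

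**Figure D1:**
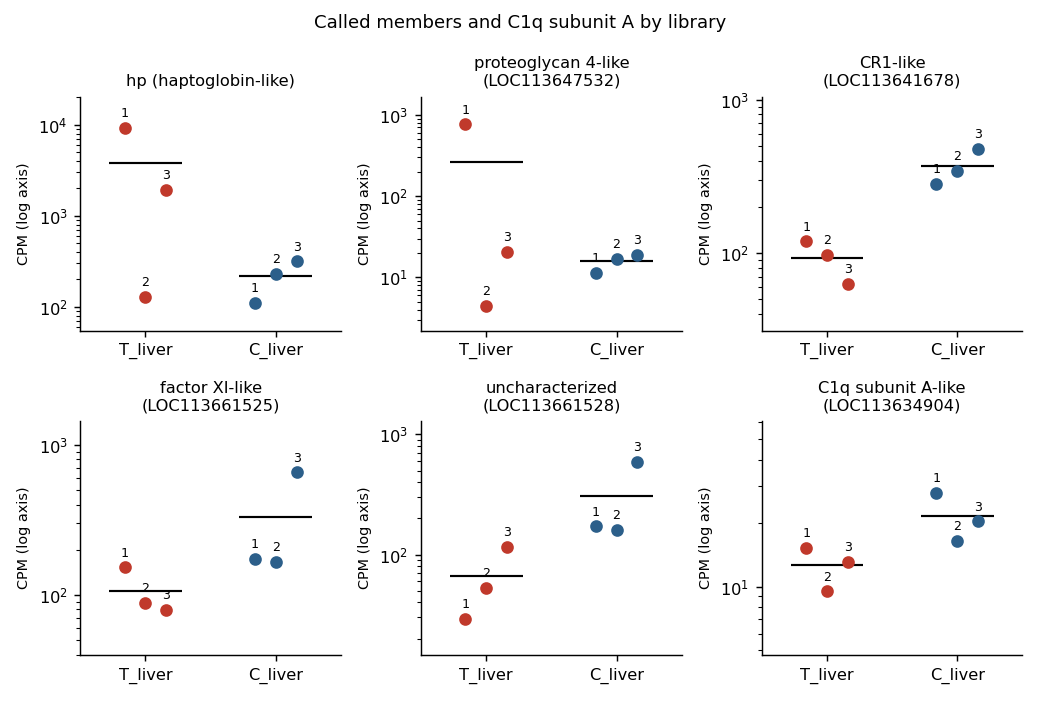
CPM (log axis) of the 5 called members and of the C1q subunit A-like gene, with T_liver on the left and C_liver on the right of each panel. Points are libraries, numbered by replicate, and lines are group means (n = 3 each). The points of LOC113641678 do not overlap between groups, whereas for hp and the proteoglycan 4-like gene the T_liver mean is set by replicate 1, at 9246 and 763 CPM.

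The recognition molecule of the classical pathway had negative log2 fold changes in each of the 3 genes described as its chains, and none passed the criteria for a DE gene. C1q binds antibody bound to antigen, and in mammals macrophages rather than hepatocytes make it. The genes of subunits A, B and C lie side by side on scaffold NW_020848170.1 between 634056 and 642000. Subunit A (LOC113634904) had 15.3, 9.51 and 13.1 CPM in T_liver against 27.7, 16.6 and 20.4 CPM in C_liver. Subunit B (LOC113634955) is described as subunit B-like but carries the same orthology entry as LOC113634904. It had 20.6, 10.6 and 12.2 CPM in T_liver against 31.6, 17.0 and 20.9 CPM in C_liver. Subunit C (LOC113634906) had 42.8, 23.0 and 25.6 CPM in T_liver against 43.5, 29.9 and 48.4 CPM in C_liver. Only the A chain had groups that did not overlap. The log2 fold changes were -0.77 ± 0.29 for A (adjusted P = 0.676), -0.68 ± 0.36 for B (adjusted P = 0.676) and -0.41 ± 0.32 for C (adjusted P = 0.748). The A chain had an unadjusted P = 0.033 and an exact permutation p = 0.1. Without T_liver replicate 1 the B chain passed the criteria, at -1.01, and without C_liver replicate 1 it was -0.39. The C chain was -0.73 without T_liver replicate 1, -0.24 without T_liver replicate 2 and -0.27 without C_liver replicate 3.

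The 8 macrophage symbols searched included c1qa, c1qb and c1qc, the C1q chains themselves, whose genes carry other names here. Found under their symbol were 2, marco and csf1r. Their summed level was between 10.3 and 15.2 CPM in T_liver and between 10.9 and 24.7 CPM in C_liver. The macrophage growth factor receptor gene csf1r had 2.07, 5.37 and 4.55 CPM in T_liver against 12.1, 5.91 and 7.53 CPM in C_liver. It passed the criteria, with a log2 fold change of -1.09 and groups that did not overlap. The scavenger receptor gene marco had 8.26, 5.28 and 10.6 CPM in T_liver against 12.5, 4.99 and 7.35 CPM in C_liver, and these overlapped. The part of macrophage number in the C1q values was not tested, and in bulk RNA fewer cells of a type and less RNA per cell cannot be told apart.

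The proteases of the lectin pathway showed no common direction. These enzymes, the MASPs, are activated by lectins on microbial sugars, and MASP2 cleaves C4 in its turn. MASP1 (LOC113637927) had 363, 285 and 348 CPM in T_liver against 195, 293 and 278 CPM in C_liver, a log2 fold change of 0.38 ± 0.28 with adjusted P = 0.735, which was 0.22 without C_liver replicate 1. The gene masp2 was high in 1 library of each group, with 497, 205 and 217 CPM in T_liver against 236, 226 and 604 CPM in C_liver. A second MASP2-like gene, LOC113648337, had 1019, 1442 and 820.3 CPM in T_liver against 1094, 1167 and 961 CPM in C_liver. All 3 overlapped between groups.

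C4 and factor B genes were highest in T_liver replicate 1. Activated C4 and factor B form the enzymes that cleave C3, and in fish factor B and C2 are so alike that gene models are described as factor B/C2A. The main C4-like gene (LOC113644338) had 8575, 2227 and 2523 CPM in T_liver against 1848, 2347 and 3260.3 CPM in C_liver. The C4-A-like gene (LOC113649413) had 932, 344 and 144 CPM in T_liver against 179, 201 and 207 CPM in C_liver. The level in T_liver replicate 1 was 2.63-fold and 2.71-fold that of the next library in these 2 genes, and T_liver replicate 3 lay within the C_liver values in LOC113644338 and below them in LOC113649413. The log2 fold changes were 0.84 ± 0.56 for LOC113644338 (adjusted P = 0.714) and 1.27 ± 0.62 for LOC113649413 (adjusted P = 0.676), and without T_liver replicate 1 they were -0.050 and 0.32. LOC113649413 passed the criteria with DESeq2, at 1.28, and without T_liver replicate 3, at 1.70.

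The 3 factor B genes shared this high library. LOC113662100 had 5689, 1540.2 and 1654 CPM in T_liver against 2109.7, 1774 and 1281 CPM in C_liver. LOC113643603 had 2164, 649 and 633 CPM in T_liver against 679.6, 642 and 924 CPM in C_liver. LOC113662099, which lies 20834 bases from LOC113662100, had 1867, 556 and 767 CPM in T_liver against 869.9, 822 and 867 CPM in C_liver. T_liver replicate 1 was between 2.15-fold and 2.70-fold above the next library in all 3, and the groups overlapped. For LOC113662100 the log2 fold change was 0.78 ± 0.55 (adjusted P = 0.725) and for LOC113643603 it was 0.62 ± 0.52 (adjusted P = 0.766), and without T_liver replicate 1 these were -0.094 and -0.21. Factor D (LOC113639975), the protease that cleaves factor B, was near the limit of the test with 1.48 ± 0.391 FPKM in T_liver and 1.76 ± 0.535 FPKM in C_liver (SD, n = 3 each).

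The 6 terminal components all had positive log2 fold changes, between 0.18 and 1.38, and none passed the criteria. C9 forms the ring of the membrane attack complex, and c9 had 13895, 4845 and 3852 CPM in T_liver against 4488, 4027 and 3509 CPM in C_liver. The gene of the alpha chain of C8, c8a, had 2029.8, 706 and 617 CPM in T_liver against 647, 595 and 537 CPM in C_liver. The gene of C7, c7, had 2419, 771 and 436 CPM in T_liver against 579, 640.1 and 175 CPM in C_liver. In these 3 genes T_liver replicate 1 was between 2.87-fold and 3.14-fold above the next library, and T_liver replicate 3 lay within the range of C_liver. The log2 fold changes were 0.91 ± 0.50 for c9, 0.91 ± 0.48 for c8a and 1.38 ± 0.73 for c7, each with adjusted P = 0.676. Without T_liver replicate 1 they were 0.13, 0.17 and 0.39, and without T_liver replicate 3 all 3 passed the criteria, at 1.23, 1.21 and 1.78. With DESeq2 c7 passed as well, at 1.39.

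T_liver replicate 1 was less far from the others in the remaining terminal components. The gene c8b, which lies 40 bases from c8a on the other strand, had 1843, 1543 and 1074 CPM in T_liver against 1147, 1187 and 1106 CPM in C_liver. The gene c8g, for the gamma chain of C8, had 907, 612 and 291 CPM in T_liver against 368, 500.3 and 407 CPM in C_liver. C6 (LOC113638591) had 309, 354 and 311 CPM in T_liver against 351, 200.2 and 308 CPM in C_liver, and T_liver replicate 1 did not stand out there. In c8b the log2 fold change was 0.37 ± 0.29 (adjusted P = 0.746) and in c8g it was 0.51 ± 0.43 (adjusted P = 0.765). Without T_liver replicate 1 these were 0.20 and 0.096, and without T_liver replicate 3 they were 0.56 and 0.84. The 6 terminal genes together took 2.01%, 0.807% and 0.739% of the counts in T_liver against 0.831%, 0.757% and 0.513% in C_liver.

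**Figure D2:**
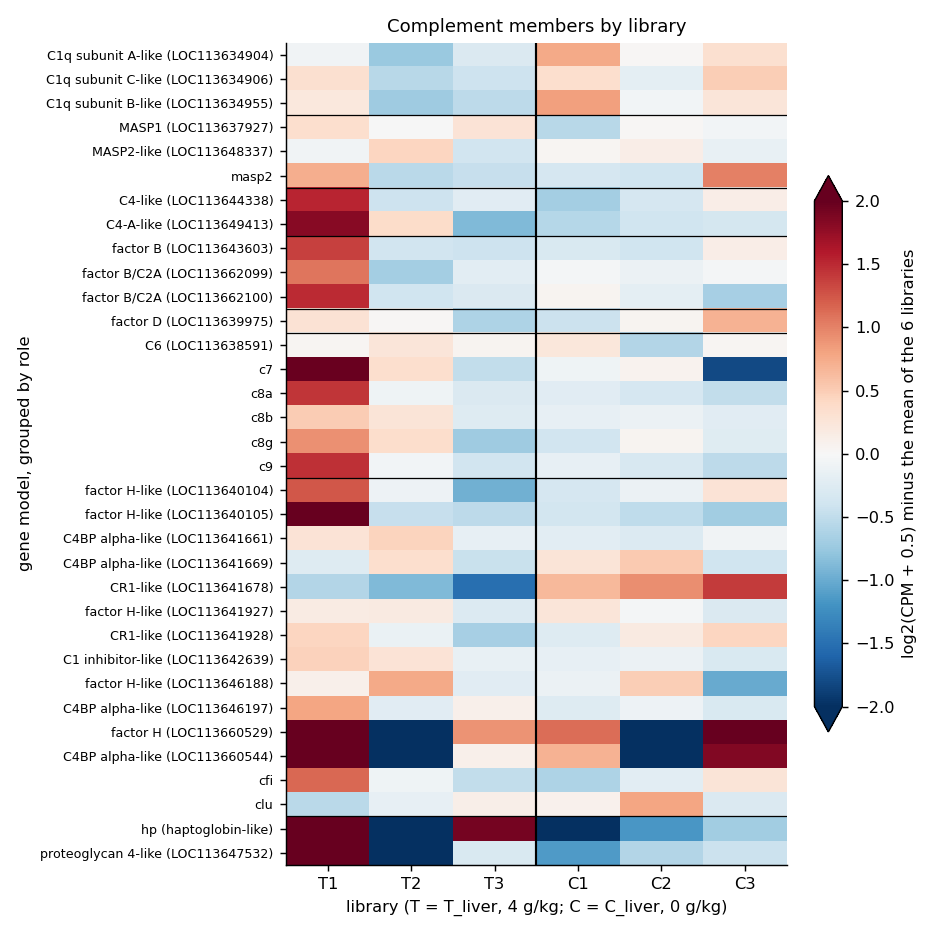
Tested complement components, with hp and the proteoglycan 4-like gene in the lowest block, by library (columns, T_liver left of C_liver). Colour gives log2(CPM + 0.5) minus the mean of the 6 libraries for that gene, and the scale ends at 2 in both directions. The column of T_liver replicate 1 is red in C4, factor B, c7, c8a and c9, and the CR1-like row LOC113641678 is blue in all 3 T_liver columns.

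Among the 14 regulators, 10 had positive and 4 had negative log2 fold changes, and only LOC113641678 passed the criteria. Factor I (cfi), the protease that inactivates C3b and C4b, had 6087, 2583 and 1942 CPM in T_liver against 1795, 2365 and 3297 CPM in C_liver. The main factor H-like gene, LOC113640104, had 4756, 1867 and 1033 CPM in T_liver against 1588, 1854 and 2438 CPM in C_liver. A second factor H-like gene beside it, LOC113640105, had 77.7, 9.16 and 8.73 CPM in T_liver against 9.83, 8.79 and 7.66 CPM in C_liver. T_liver replicate 1 held the highest value in these 3, and was 7.90-fold above the next library in LOC113640105. LOC113640105 had a log2 fold change of 1.86 ± 0.85 (adjusted P = 0.676), which was 0.04 without T_liver replicate 1 and passed the criteria without T_liver replicate 2 or 3, with edgeR's exact test and with no filter on low values. That of cfi was 0.51 ± 0.48 (adjusted P = 0.787), and it ran between -0.12 without T_liver replicate 1 and 0.80 without T_liver replicate 3, with 0.32 without C_liver replicate 1 and 0.77 without C_liver replicate 3. LOC113642639, the C1 inhibitor-like gene, had 7739, 6818 and 5081 CPM in T_liver against 5009, 5184 and 4541 CPM in C_liver, a log2 fold change of 0.41 ± 0.27 with adjusted P = 0.706. Another factor H-like gene, LOC113646188, had 1425, 2231 and 1138 CPM in T_liver against 1217, 1873 and 656 CPM in C_liver. The C4b-binding protein-like gene LOC113646197 had 1711, 840.2 and 1054 CPM in T_liver against 829, 922 and 796 CPM in C_liver, with a log2 fold change of 0.50 ± 0.33 and adjusted P = 0.709, and it was 0.17 without T_liver replicate 1. The groups overlapped in LOC113646188 and LOC113646197. Clusterin (clu), which keeps the terminal complex out of membranes, had 482, 627 and 759 CPM in T_liver against 747, 1211 and 570.2 CPM in C_liver, with a log2 fold change of -0.44 ± 0.36 and adjusted P = 0.761, and it was -0.27 without T_liver replicate 1 and -0.082 without C_liver replicate 2.

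A pair of regulators was nearly silent in 1 library of each group. LOC113660529, described as factor H, had 23457, 29 and 2186 counts in T_liver against 2525, 16 and 4588 counts in C_liver. LOC113660544, described as C4b-binding protein alpha chain-like and 39020 bases away on scaffold NW_020848042.1, had 3874, 6 and 319 counts in T_liver against 494, 5 and 841 counts in C_liver. Replicate 2 was the low library in both groups and both genes, and replicate 1 of T_liver was the high one. Replicate 2 was not low in this way in the genes nearest to the pair that were counted in every library. LOC113660528, which lies between the pair, had 199, 163 and 157 counts in T_liver against 217, 155 and 170 counts in C_liver. LOC113660541, described as translation initiation factor 4B-like and beyond LOC113660544, had 2846, 2412 and 3133 counts in T_liver against 3748, 2011 and 2415 counts in C_liver. LOC113660525, described as vitamin D3 receptor B and farther away on the other side, varied widely too, but with its low value in another library, with 782, 338 and 1617 counts in T_liver against 340, 712 and 33 counts in C_liver. In the factor H and C4b-binding protein-like pair the groups overlapped, with adjusted P = 0.814 for LOC113660529 and adjusted P = 0.826 for LOC113660544. The labels give no shared origin for equal numbers, so whether replicate 2 of the 2 groups has one is not known.

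Across the 39 complement members the median log2 fold change was 0.38, with 27 above 0, beside a median of -0.0047 over all tested genes. This median rested on T_liver replicate 1. Without that library it was -0.0091, with 19 members above and 20 below 0, and when any other library was left out it was between 0.34 and 0.55. The members' share of each library showed the same thing in another way. Complement members took 7.2%, 2.95% and 3.09% of the counts in T_liver against 2.99%, 3.11% and 2.42% in C_liver. With hp left out, T_liver replicate 1 still had 6.33%, against at most 3.09% in each of the other 5 libraries.

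**Figure D3:**
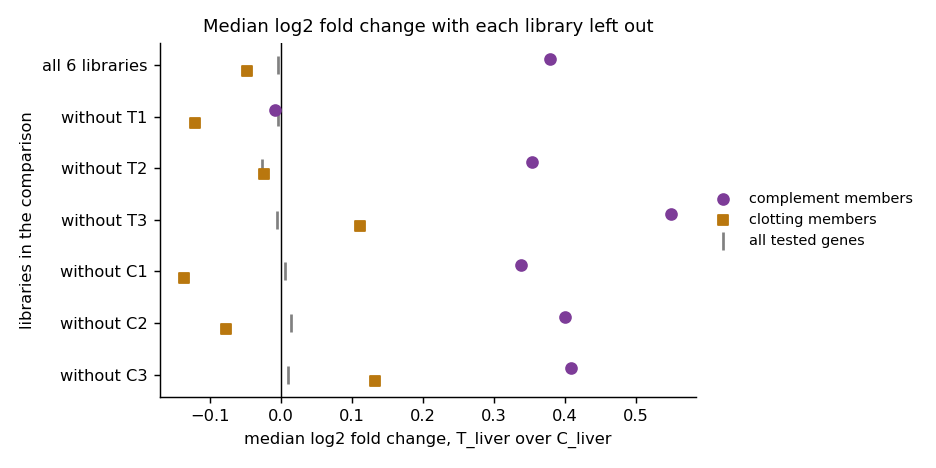
Median log2 fold change of complement members (circles), clotting members (squares) and all tested genes (ticks) with all 6 libraries and with each library left out. The complement median is 0.38 with all libraries and -0.0091 without T_liver replicate 1, and the clotting median lies between -0.14 and 0.13.

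**Figure D4:**
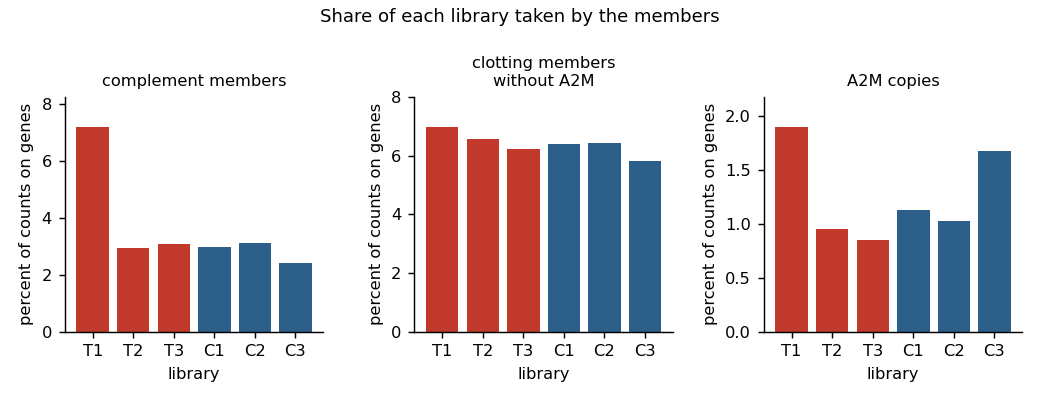
Percent of the counts on genes that complement members, clotting members without the alpha-2-macroglobulin (A2M) copies, and the A2M copies took in each library (T1 to T3, T_liver; C1 to C3, C_liver). Complement took 7.2% in T1 and between 2.42% and 3.11% elsewhere, while A2M was highest in T1 (1.90%) and C3 (1.67%).

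Some complement genes are outside the member list because the table's pathway column does not file them there, or files them elsewhere. They were chosen after their values were seen. C3 is the protein on which all complement pathways meet. The C3 gene of highest level, LOC113636343, had 30220.3 CPM in T_liver replicate 1, 7684 in T_liver replicate 2 and 8183 in T_liver replicate 3, against 8980 in C_liver replicate 1, 9886.5 in C_liver replicate 2 and 6861 in C_liver replicate 3. The gene c5 had 3666, 1115 and 1019.8 CPM in T_liver against 1308, 1243 and 1431 CPM in C_liver. T_liver replicate 1 stood apart in both, as it did in c9. It was highest by less in properdin (cfp), at 518 CPM against 328 CPM in T_liver replicate 2. Of the C1r-like genes, LOC113647727 had 6534 CPM in T_liver replicate 1 against 4986 CPM in C_liver replicate 2. LOC113636687 had 1717 CPM in T_liver replicate 1 against 1314 CPM in T_liver replicate 2. LOC113644645 was highest in T_liver replicate 2. Another C3 gene, LOC113657010, had 1957, 1408 and 1695 CPM in T_liver against 914, 1122 and 422 CPM in C_liver. It was the 1 of 6 C3 genes that passed the criteria, with groups that did not overlap, a log2 fold change of 1.04 and adjusted P = 0.676. Over the 6 libraries, log2 CPM of c9 and c8a correlated with that of LOC113636343 at r = 0.96 and r = 0.97, and at -0.44 and -0.77 without the 2 libraries farthest from the median, so the likeness rested on those libraries.

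Of 16 acute phase protein symbols searched, 8 were tested, among them the members hp and ambp, and only hp passed the criteria. Outside the member list cp and hamp were highest in T_liver replicate 1, and itih2, itih3, fn1 and apcs were not. The fibronectin gene fn1 was lowest in that library, with 12.1, 13.4 and 19.4 CPM in T_liver against 20.6, 16.9 and 23.7 CPM in C_liver. Ceruloplasmin (cp), the copper carrier of plasma, had 20705, 6418 and 5135 CPM in T_liver against 5582, 7454 and 4878 CPM in C_liver. The inter-alpha-trypsin inhibitor heavy chain genes itih2 and itih3 did not show this, with itih3 at 7242, 7647 and 8429 CPM in T_liver against 8927, 8524 and 7958 CPM in C_liver. The iron hormone gene hamp had 37.4, 0.421 and 0.0749 CPM in T_liver against 14.8, 7.89 and 0 CPM in C_liver. None of 11 tested genes among 21 liver transcription factors and acute phase signalling genes passed the criteria. Of these, cebpd, a factor that drives acute phase genes in mammals, had 111, 169 and 15.3 CPM in T_liver against 35.6, 37.4 and 112 CPM in C_liver.

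Markers of other cells were also read in the library that stood apart. Of 4 neutrophil markers 2 were found, lyz and ncf1, and they summed to 108, 33.0 and 39.4 CPM in T_liver against 52.3, 41.6 and 51.5 CPM in C_liver. Of 7 exocrine pancreas markers the lipase gene cel was the one found, with 86.0, 28.5 and 44.8 CPM in T_liver against 5.18, 3.54 and 15.0 CPM in C_liver. It passed the criteria, with a log2 fold change of 2.75, and the groups did not overlap. Of 8 endothelial markers 4 were tested, and none passed the criteria. They summed to 33.9, 57.9 and 57.1 CPM in T_liver against 67.6, 57.8 and 63.4 CPM in C_liver, lowest in T_liver replicate 1. Of the bile duct, stellate cell and thrombocyte markers, krt18, hand2, acta2 and gp1bb were tested. None of these was highest in T_liver replicate 1. None of 5 red blood cell symbols was found in the table. The part of these cells in the complement values was not tested.

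Clotting members as a group stayed near 0. The median log2 fold change was -0.05, with 25 of 60 above 0, and it ran between -0.14 without C_liver replicate 1 and 0.13 without C_liver replicate 3. Clotting members took 8.86%, 7.53% and 7.07% of the counts in T_liver against 7.54%, 7.45% and 7.48% in C_liver.

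Both called clotting members are neighbours. LOC113661525, described as factor XI-like, and LOC113661528, described as an uncharacterized protein, lie 7123 bases apart on scaffold NW_020848070.1, from 5386813 to 5401027 and from 5363112 to 5379689. Factor XI is a protease that activates factor IX. The table gives LOC113661528 the orthology entry of plasma kallikrein, the protease that releases bradykinin from kininogen, and also lists monooxygenase and haem-binding terms for it, so that its identity is unsure. LOC113661528 had 29.3, 53.0 and 116 CPM in T_liver against 172, 159.5 and 588 CPM in C_liver. LOC113661525 had 152, 88.7 and 79.5 CPM in T_liver against 173, 167 and 656 CPM in C_liver. The groups did not overlap in either gene, and C_liver replicate 3 was far above the others in both.

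LOC113661528 had a log2 fold change of -2.21 ± 0.70 (SE), with an unadjusted P = 0.0151 and adjusted P = 0.676 by the quasi-likelihood test and an exact permutation p = 0.1. LOC113661525 had a log2 fold change of -1.63 ± 0.61 (SE), with an unadjusted P = 0.0296 and adjusted P = 0.676 by the same test and an exact permutation p = 0.1. Without C_liver replicate 3 neither passed, at -1.31 for LOC113661528 and -0.66 for LOC113661525. The call of LOC113661528 was also lost without T_liver replicate 2. That of LOC113661525 was also lost without T_liver replicate 2 or 3 and with a replicate block. Over the alternatives the adjusted P ran between 0.0757 and 0.946 for LOC113661528 and between 0.265 and 0.946 for LOC113661525.

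The other clotting factors overlapped between groups or differed by little. Factor V (f5), the cofactor of factor X, had 1118, 773 and 822 CPM in T_liver against 649, 690.3 and 691 CPM in C_liver. Its groups did not overlap, with a log2 fold change of 0.42 ± 0.27 and adjusted P = 0.701, and 0.25 without T_liver replicate 1. Factor IX (f9), which activates factor X together with factor VIII, had 698, 540.1 and 431 CPM in T_liver against 385, 421 and 486 CPM in C_liver, with a log2 fold change of 0.37 ± 0.29 and adjusted P = 0.747, and 0.19 without T_liver replicate 1. LOC113658035, described as a venom prothrombin activator and carrying the orthology entry of factor X, had 159, 186 and 139.9 CPM in T_liver against 216, 193 and 279.5 CPM in C_liver. It did not overlap and went the other way, with a log2 fold change of -0.51 ± 0.27 and adjusted P = 0.676, and it was -0.33 without C_liver replicate 3. Kininogen (kng1) had 3552, 4885 and 3229 CPM in T_liver against 4889, 4455 and 7366 CPM in C_liver, with a log2 fold change of -0.52 ± 0.31 and adjusted P = 0.692, and it was -0.26 without C_liver replicate 3.

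Of the genes described as factor X-like, LOC113637905 had 379.8, 324 and 196 CPM in T_liver against 237, 220.3 and 263 CPM in C_liver, with a log2 fold change of 0.32 ± 0.31 and adjusted P = 0.795, which was 0.13 without T_liver replicate 1 and 0.55 without T_liver replicate 3. LOC113648978, the one of higher level, averaged 955 ± 131 FPKM in T_liver and 898 ± 47.1 FPKM in C_liver (SD, n = 3 each). These means differed by less than the larger SD. LOC113648980, described as factor VII, lies within the span of LOC113648978 on the same strand, so that reads of the 2 could be exchanged, and averaged 598 ± 68.3 FPKM in T_liver and 542 ± 42.5 FPKM in C_liver (SD, n = 3 each). The second factor IX-like gene, LOC113635590, had 44.3, 48.9 and 48.4 CPM in T_liver against 42.9, 40.4 and 58.7 CPM in C_liver. The prothrombin gene f2, which the table does not file under this pathway, had 7044, 7566 and 5669.6 CPM in T_liver against 5782, 6143 and 8485 CPM in C_liver.

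The 3 fibrinogen chains, the substrate of thrombin, had their highest value in T_liver replicate 1. The gene fga had 17199, 15244 and 10359.8 CPM in T_liver against 9367, 10347 and 11232 CPM in C_liver. The gene fgb had 12033, 9259 and 7854 CPM in T_liver against 7929, 8749 and 7538 CPM in C_liver, and fgg had 9000.3, 7574 and 4998 CPM in T_liver against 5558, 5532 and 4975 CPM in C_liver. T_liver replicates 1 and 2 lay above every C_liver library in each chain, and T_liver replicate 3 lay within the C_liver values. The log2 fold changes were 0.47 ± 0.28 for fga (adjusted P = 0.69), 0.27 ± 0.27 for fgb (adjusted P = 0.798) and 0.43 ± 0.29 for fgg (adjusted P = 0.722). Without T_liver replicate 1 they were 0.32 for fga, 0.097 for fgb and 0.24 for fgg. Fibrinogen took 3.6%, 2.93% and 2.61% of the counts in T_liver against 2.51%, 2.61% and 2.02% in C_liver.

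Inhibitors of clotting overlapped between groups in each of the 4 tested members. Antithrombin (serpinc1), the main inhibitor of thrombin, had 6220.0, 6355 and 6034 CPM in T_liver against 5899, 5206 and 7058 CPM in C_liver. Heparin cofactor 2 (serpind1) had 1636, 2857 and 1634 CPM in T_liver against 2172, 2849.6 and 2574 CPM in C_liver. The protein Z-dependent protease inhibitor genes, which act on factor X, were LOC113659600 with 971, 1046 and 925 CPM in T_liver against 903, 818 and 1050.0 CPM in C_liver, and LOC113653750 at a lower level. The log2 fold changes of the 4 ran between -0.31 and 0.09. The protein C system, which switches off factors V and VIII, had log2 fold changes between -0.04 and 0.17 in protein S (LOC113648792) and the 2 protein C-like genes (LOC113650091 and LOC113650101), and these overlapped between groups too.

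Genes that slow fibrin breakdown were measured in 3 members. The alpha-2-antiplasmin-like gene LOC113646968 had 415, 323 and 302 CPM in T_liver against 387, 350.2 and 711 CPM in C_liver, with a log2 fold change of -0.48 ± 0.35 and adjusted P = 0.736. Its relative serpinf2 had 625, 867 and 708 CPM in T_liver against 786, 814 and 1094 CPM in C_liver, with a log2 fold change of -0.29 ± 0.28 and adjusted P = 0.792. Both were highest in C_liver replicate 3, without which these were -0.08 and -0.12, and serpinf2 was -0.18 without T_liver replicate 1. Carboxypeptidase B2 (cpb2) averaged 438 ± 77.1 FPKM in T_liver and 422 ± 61.2 FPKM in C_liver (SD, n = 3 each). Plasminogen (plg), not filed under this pathway in the table, had 4813, 3402 and 4050.0 CPM in T_liver against 3649, 3330 and 3237 CPM in C_liver.

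The alpha-2-macroglobulin genes are the largest family here, with 17 tested copies. This protein traps proteases of many kinds. Of the tested copies 11 lie in a row on scaffold NW_020848064.1 between 446512 and 724417. None passed the criteria, and their log2 fold changes ran between -1.04 and 0.80 with a median of -0.08. The copies were high in T_liver replicate 1 and in C_liver replicate 3, where they took 1.90% and 1.67% of the counts, against 0.954% and 0.855% in T_liver replicates 2 and 3 and 1.13% and 1.03% in C_liver replicates 1 and 2. LOC113661230, the copy of highest level, had 3194, 3614 and 2418 CPM in T_liver against 2843, 2782 and 6262 CPM in C_liver. LOC113661229 beside it had 628, 536 and 252 CPM in T_liver against 480.0, 374 and 2055 CPM in C_liver, with a log2 fold change of -1.04 ± 0.70 and adjusted P = 0.716. LOC113660497, on another scaffold, had 6692, 1106 and 1265 CPM in T_liver against 1856, 1702 and 1641 CPM in C_liver, with a log2 fold change of 0.80 ± 0.69 and adjusted P = 0.769. LOC113661242 had 227, 49.7 and 93.1 CPM in T_liver against 120.1, 71.6 and 47.7 CPM in C_liver, with a log2 fold change of 0.63 ± 0.59 and adjusted P = 0.787. The high library thus differed from copy to copy. LOC113661229 was 0.14 without C_liver replicate 3, and without T_liver replicate 1 LOC113660497 was -0.53 and LOC113661242 was -0.14. Without C_liver replicate 3 LOC113661242 was 0.36.

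**Figure D5:**
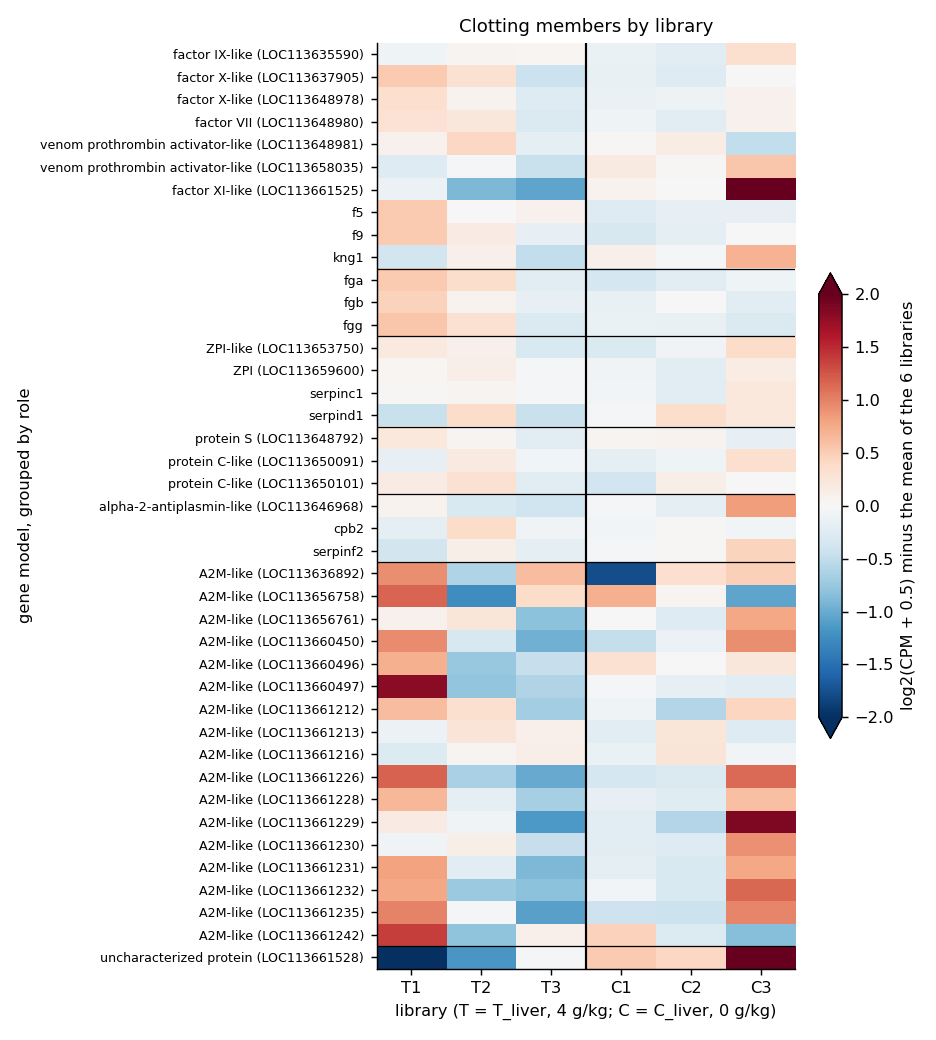
Tested clotting components by library (columns, T_liver left of C_liver), with the A2M copies and the uncharacterized gene LOC113661528 in the lowest blocks. Colour gives log2(CPM + 0.5) minus the mean of the 6 libraries for that gene. Most rows above the A2M block are pale, and most of the A2M block is red in T_liver replicate 1, in C_liver replicate 3 or in both.

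The remaining named members are proteins with related domains. The receptor gene dcbld2, a membrane protein with discoidin and CUB domains, had 31.7, 30.0 and 20.7 CPM in T_liver against 16.3, 17.0 and 17.4 CPM in C_liver. Its groups did not overlap, with a log2 fold change of 0.70 ± 0.24, below the criterion for the size of a change, and adjusted P = 0.676. LOC113638919, described as hyaluronan-binding protein 2, a protease that can activate factor VII in mammals, had 425, 459.8 and 375 CPM in T_liver against 532, 496 and 915 CPM in C_liver, with a log2 fold change of -0.62 ± 0.32 and adjusted P = 0.676, and it was -0.29 without C_liver replicate 3. The gene habp2, with the same description, lies 2556 bases from LOC113638919 on the same strand. It had 758, 834 and 880 CPM in T_liver against 859, 866 and 1571 CPM in C_liver, and its groups overlapped. Another copy, LOC113655220, overlapped between groups as well and averaged 853 ± 155 FPKM in T_liver and 774 ± 140.0 FPKM in C_liver (SD, n = 3 each). The 3 tested genes of the vitamin K cycle, ggcx, vkorc1l1 and nqo1, on which many clotting factors depend for their activation, did not pass the criteria. The 21 tested members taken neither as a classical component nor for their level or change include habp2 and LOC113648981, described as a venom prothrombin activator. These 21 had log2 fold changes between -0.79 and 0.75 and did not pass the criteria.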

How the data were processed

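Liver RNA of 6 libraries was sequenced, 3 per group. After read filtering and HISAT alignment, the authors deposited 1 table with whole-number counts and FPKM values per gene. The submitters' processing notes list HISAT2 2.0, StringTie 1.3.0 and Bowtie 0.12.2 with a mouse build name, so coordinates are given as deposited and the build is not given in the sources used here. In the deposited FPKM, genes without a count are listed at 1e-04.

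Of 20547 genes with a count, the 11521 with a mean of 1 FPKM or more were tested. Counts were scaled by TMM and compared with edgeR 4.0.16 in R 4.3.3 (quasi-likelihood, trended dispersion, no covariate). P values were adjusted over all tested genes (Benjamini-Hochberg). Calls used the study's thresholds on unadjusted P and fold change. The SE came from the F statistic. The method was run on simulated counts in which no library stood apart, so that run cannot test calls that rest on a single library. CPM used the counts on tested genes.

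Members and lists were chosen with earlier results of these data known. Named were called members, the 10 of highest FPKM in each class, and members whose groups did not overlap at a log2 fold change of 0.5 or more in size. Tested members described as a classical component were named too, but a description as a venom prothrombin activator did not count for this. Of the A2M copies so taken, examples are printed. Fold changes of single members are printed where larger than their SE. Genes outside the pathway column were chosen after their values were seen. Alternatives changed the scaling, the filter, the test (limma 3.58.1, DESeq2 1.42.0) and the libraries.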

Additional observations from a re-analysis of the deposited data

How the results depend on the processing

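Over all tested genes 358 were called. This became 774 with no filter on low values, 175 with a mean of 5 FPKM or more, 190 with limma on log2(FPKM + 1), and between 248 and 643 when 1 library was left out. Called complement members numbered 3, against 1 with limma on log2(FPKM + 1), 1 with limma on log2(FPKM + 0.1), 1 when members had to be described as a component, and between 1 and 8 with 1 library left out. The 8 were reached without T_liver replicate 3. Called clotting members numbered 2, against 1 when described as a component and between 0 and 3 with 1 library left out. Groups did not overlap in 2 complement members, against 4 with scaling by total counts, 5 with a mean of 5 FPKM or more, 4 with either limma setting and between 4 and 11 with 1 library left out. For clotting the number was 6, against 10 with either limma setting, 3 when described as a component and between 8 and 15 with 1 library left out, where 2 libraries against 3 overlap less often. The median log2 fold change ran between -0.0091 and 0.55 for complement and between -0.14 and 0.13 for clotting with 1 library left out. Without the A2M copies, an alternative chosen after seeing the data, the clotting median was -0.02.

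With a replicate block, 2 complement members (c7 and LOC113641678) and 1 clotting member (LOC113661528) were called, and the medians were 0.34 and -0.04. Equal replicate numbers gave correlations of -0.11, 0.04 and -0.14 between deviations from the group means, and unequal numbers gave between -0.13 and 0.19. With 3 libraries per group these values cannot show whether equal numbers share an origin, and the labels give none.

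Of 583 log2 fold changes of the 39 named members with a change above its SE, under 15 alternatives, 546 had the same call and direction, 17 lost a call, 12 gained one and 8 had the other direction. With 1 library left out, these 8 ran between -0.53 and 1.2 for LOC113660497, -0.14 and 1.04 for LOC113661242, -0.050 and 1.16 for LOC113644338, -0.21 and 0.91 for LOC113643603, -0.094 and 1.09 for LOC113662100, -0.30 and 4.63 for LOC113647532, -0.12 and 0.80 for cfi, and -1.43 and 0.14 for LOC113661229. The other direction came without T_liver replicate 1 in 7 of them and without C_liver replicate 3 in LOC113661229. The 39 smaller changes are not given, and 29 of them changed sign under some alternative. The cause of these shifts was not tested.

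Genes of few counts, such as LOC113660544 in replicate 2 of both groups, are measured less precisely. Replicate 2 had 49343836 counts in T_liver and 51459627 in C_liver, against 44153673 in T_liver replicate 1. The cause of the low counts of LOC113660544 there was not tested. With 3 libraries per group an exact permutation test cannot go below 0.1.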
